A study of Mus musculus with 6 samples.

Results

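The second heart field is a population of progenitors in the pharyngeal mesoderm that lengthens the heart tube, adding cells to the outflow tract at its arterial pole and to the atria and sinus venosus at its venous pole. These cells are known to be kept proliferating and moved into the heart by fibroblast growth factors, retinoic acid and transcription factors such as Isl1, Tbx1 and Mef2c, and semaphorins guide the neural crest cells that divide the outflow tract. Arid3b binds AT-rich DNA through its ARID domain, and its part in the deployment of second heart field cells has been studied in mice.

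The 9 genes described here act in the second heart field and outflow tract: the ligands Fgf15 and Sema3c, the receptor Nrp2, the signalling regulator Rgs5 and the transcription factors Mef2c, Tbx1, Tbx20, Shox2 and Hand1. They were taken by name and were found on 13 of 39429 non-control probes through the RefSeq accession of each probe, as 9 of 32530 gene names on the array. The arrays compared trunks of Arid3b-null mouse embryos with trunks of wild-type embryos at embryonic day 9.5, the body from the otic vesicle back to somite 15 together with the forelimb buds. Each group had 3 arrays, each with RNA pooled from 4 embryos, so the spread between arrays is the spread between pools and not between embryos. The sources used here give neither the strain nor how the null allele was made.

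Values are log2 signals relative to the 75th percentile of each array, which lay between 611 and 844 units on the 6 arrays, and a change is the Arid3b-null mean minus that of wild type. Each change was tested with limma across all 19792 genes that passed a filter on dim probes, and a gene was called at a Benjamini-Hochberg adjusted p under 0.05. Arid3b itself read 0.54, 0.65 and 0.46 in Arid3b-null trunks, against 2.18, 2.57 and 1.97 in wild-type trunks on its brightest probe (log2 change -1.69 ± 0.17 SE, limma adjusted p = 0.00154). Its other 2 probes changed by -3.23 and -1.90. The sources used here do not say whether any of the 3 probes lies in deleted sequence. The trunk label was set against markers. All 12 forelimb bud genes listed could be tested, while 5 of 11 forebrain and midbrain genes (Six3, Six6, Otx1, Barhl2 and Fezf2) were not well above background on any array. In pooled pieces of body, fewer cells of a type and less RNA per cell cannot be told apart.

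Promoter sequence was available from RefSeq (build GRCm38.p6) for 7 of the 9 genes (all but Fgf15 and Hand1), in 10 windows. The 250 bases before the annotated start are shown for 3 genes that rose (Sema3c, Nrp2 and, of its 3 starts, the first of Mef2c) and for Shox2, which fell. They lie at chr5:17574566-17574815 (+), chr1:62703067-62703316 (+), chr13:83503784-83504033 (+) and chr3:66981772-66982021 (-), and each is written 5′ to 3′ on the strand of its gene. Capitals mark matches, on either strand, to ATTAAA (an AT-rich core of the kind ARID3 proteins bind), ACGTG (the core of hypoxia response elements), CACGTG (an E-box that holds ACGTG on both strands) or GGTGTGA (the core of T-box binding sites).
Sema3c: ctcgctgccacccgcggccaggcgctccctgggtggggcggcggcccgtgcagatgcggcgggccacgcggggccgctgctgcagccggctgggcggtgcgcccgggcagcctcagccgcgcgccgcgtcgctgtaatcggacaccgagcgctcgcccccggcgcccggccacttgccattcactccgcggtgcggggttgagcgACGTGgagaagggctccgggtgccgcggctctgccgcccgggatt
Nrp2: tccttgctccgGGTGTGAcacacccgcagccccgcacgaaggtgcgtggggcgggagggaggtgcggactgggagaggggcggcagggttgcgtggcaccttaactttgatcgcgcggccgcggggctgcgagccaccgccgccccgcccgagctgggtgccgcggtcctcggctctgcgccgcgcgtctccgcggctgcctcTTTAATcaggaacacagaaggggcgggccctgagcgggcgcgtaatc
Mef2c: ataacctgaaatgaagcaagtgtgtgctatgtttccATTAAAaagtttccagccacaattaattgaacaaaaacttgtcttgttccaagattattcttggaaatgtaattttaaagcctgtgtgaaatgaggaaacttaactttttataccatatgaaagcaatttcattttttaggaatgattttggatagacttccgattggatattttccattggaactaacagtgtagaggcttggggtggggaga
Shox2: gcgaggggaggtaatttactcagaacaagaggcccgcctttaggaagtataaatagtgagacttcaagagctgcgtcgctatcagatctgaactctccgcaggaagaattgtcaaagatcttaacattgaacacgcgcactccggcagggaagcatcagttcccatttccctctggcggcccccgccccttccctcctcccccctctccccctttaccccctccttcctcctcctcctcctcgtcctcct
The Sema3c window holds ACGTG 45 bases before the start. The Nrp2 window holds GGTGTGA 239 bases before the start and ATTAAA on the opposite strand 47 bases before it. The Mef2c window holds ATTAAA 214 bases before the start, and the Shox2 window holds none of the 4 motifs. Over the 10 windows ATTAAA was present in 2, ACGTG in 3, CACGTG in 0 and GGTGTGA in 1. Of all 32851 windows of this length 12.7%, 16.6%, 6.02% and 3.33% hold these motifs. The windows also differ in base composition, with 78.4% G and C for Sema3c, 72.4% for Nrp2, 55.6% for Shox2 and 33.6% for Mef2c, against a median of 52.4% over all windows.

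Of the 9 genes, 8 were tested, and 4 rose (Fgf15, Nrp2, Sema3c and Mef2c) while 1 fell (Shox2) in Arid3b-null trunks. Tbx1, Tbx20 and Hand1 did not pass, and Rgs5 was too dim to be tested. Of all tested genes 26.5% were called, 13.6% as risen and 12.9% as fallen, and the 5 calls among 8 genes (62.5%) are to be read against that background. The genes were chosen with earlier results of these arrays known, and no test was made of the set. The tested probes of all 8 genes but 1 further Tbx20 probe were well above background on all 6 arrays, so passing the filter did not rest on the brighter group. The median log2 change was 0.49 over the 8 genes and -0.04 over all genes tested. The values of the groups did not overlap for 5 of the 8, as for 46.2% of all tested genes.

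**Figure D1:**
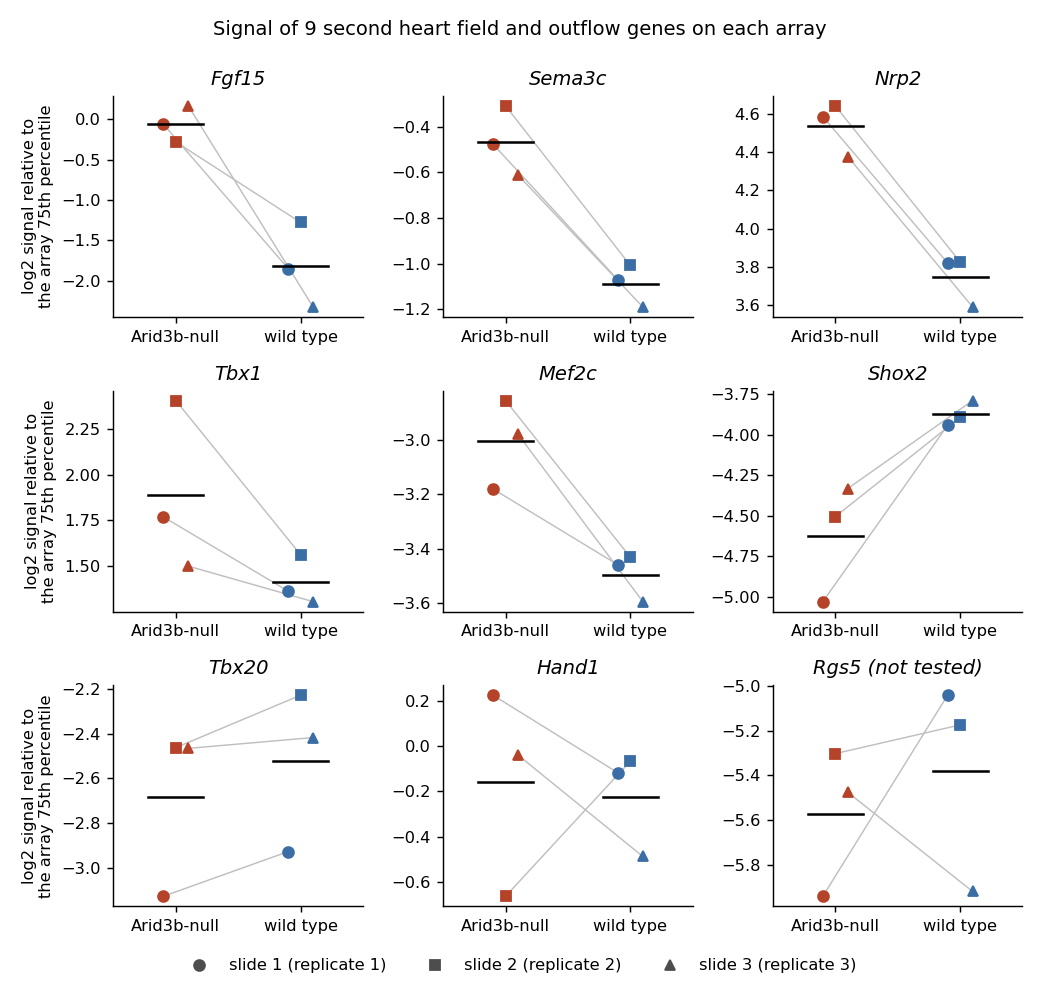
Log2 signal relative to the array's 75th percentile (vertical axis, own scale per gene) for the brightest probe of each of the 9 genes, with Arid3b-null arrays left and wild-type arrays right. Symbols mark the slide, grey lines join arrays of one slide and black bars are group means (n = 3 each). The groups do not overlap for Fgf15, Sema3c, Nrp2, Mef2c and Shox2.

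Fgf15, a secreted fibroblast growth factor made in the pharyngeal region and neural tube and needed in mice for the alignment of the outflow tract, had the largest change of the 8 genes on this scale. It read -0.06, -0.28 and 0.17 in Arid3b-null trunks, against -1.85, -1.28 and -2.33 in wild-type trunks. Every Arid3b-null array stood above every wild-type array, and the wild-type arrays spread more widely. The log2 change was 1.76 ± 0.27 (SE, limma adjusted p = 0.00583), 3.39-fold with a 95% interval of 2.17-fold to 5.28-fold. The change was 1.79 on slide 1, 0.998 on slide 2 and 2.49 on slide 3, a wide range that comes from the wild-type arrays (SD 0.52) more than from the Arid3b-null arrays (SD 0.22). Markers of tissues that also make Fgf15 moved too. Of 15 neural tube progenitor genes tested 2 rose and 8 fell (66.7% called, against 26.5% of all tested genes). Their summed linear signal was 17.9 to 19.6 in Arid3b-null trunks and 36.1 to 39.8 in wild-type trunks. Among the rises, 1 gene was well above background on only 1 of 3 wild-type arrays. Among the falls, 1 gene was so on only 1 of 3 Arid3b-null arrays. These 2 genes entered the test only through the group where they are higher. Of 11 genes of pharyngeal endoderm and surface epithelium 4 rose and 1 fell (45.5% called). Their sums were 56.5 to 66.6 in Arid3b-null trunks and 25.7 to 37.9 in wild-type trunks. Krt8, Krt18, Krt19 and Pax8 rose, and Nkx2-6 fell (log2 change -0.48, limma adjusted p = 0.0415). Foxa1, Foxa2 and Nkx2-3 changed by 0.11, -0.30 and -0.66 and did not pass. The sums mostly follow the keratins, the brightest of the list (Krt18 5.23, Krt19 3.71 and Krt8 2.66 as Arid3b-null means). Apart from Krt8 and Krt19, these genes were named after their values were seen. Without wild type replicate 1 the rises were 1 and 2 in these lists, and the 1 fall in the epithelial list was lost in 4 of 6 omissions of an array (Arid3b-null replicates 2 and 3, wild type replicates 1 and 2). Their part in the Fgf15 change was not tested.

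Genes that receive or answer fibroblast growth factor signals were read beside Fgf15. Of 14 listed, 12 were tested, 3 rose and 0 fell (limma; 5 and 0 at an unadjusted p under 0.05), with a median log2 change of 0.30. The share called was 25%, near the 26.5% called among all tested genes. Fgfr4, a receptor for Fgf15, rose 1.81-fold (adjusted p = 0.0065) and Fgfr2, a receptor for several of these ligands, 1.39-fold (0.0202). Spred2, an inhibitor of the Ras pathway downstream of the receptors, rose 1.36-fold (0.0271), a call lost with the replicate number as a block (adjusted p = 0.0515) and on leaving out any array but Arid3b-null replicate 3 (0.0625 to 0.0896). The Fgfr2 call was lost without Arid3b-null replicate 1 or 3 or wild type replicate 1 (adjusted p = 0.0635, 0.0535 and 0.0819). The co-receptor gene Klb, named after its value was seen, was well above background on every array. Its log2 change of 0.15 ± 0.22 did not pass (SE, limma adjusted p = 0.646). The co-receptor gene Kl and the feedback inhibitor gene Spry4 were not well above background on any array. With any 1 array left out, 1 or 2 genes of this list rose.

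Sema3c encodes a secreted semaphorin of the outflow tract that attracts cardiac neural crest cells. Its brighter probe read -0.48, -0.31 and -0.61 in Arid3b-null trunks, against -1.07, -1.01 and -1.19 in wild-type trunks, with no overlap. It rose by 0.62 ± 0.12 on the log2 scale (SE, limma adjusted p = 0.0126), 1.54-fold with a 95% interval of 1.26-fold to 1.88-fold. The slides gave close values of 0.59, 0.70 and 0.58. A dimmer probe of the same transcript read -3.16, -3.01 and -3.47 in Arid3b-null trunks, against -3.72, -3.48 and -3.37 in wild-type trunks. On that probe the groups overlapped through slide 3 and the change of 0.32 ± 0.16 did not pass (SE, adjusted p = 0.19 over all tested probes, 26.3% of which were called). Whether the 2 probes differ in their change was not tested.

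Nrp2 encodes neuropilin 2, a receptor of class 3 semaphorins, Sema3c among them, and a co-receptor for Vegfc. Its brighter probe read 4.58, 4.64 and 4.38 in Arid3b-null trunks, against 3.82, 3.83 and 3.59 in wild-type trunks. The groups lay apart by more than the spread within either of them, and the slides gave nearly equal changes of 0.76, 0.81 and 0.79. The log2 change was 0.79 ± 0.13 (SE, limma adjusted p = 0.00648), with a 95% interval of 1.4-fold to 2.13-fold. A second probe, annotated to another transcript variant, read 1.31, 1.31 and 1.16 in Arid3b-null trunks, against 0.52, 0.82 and 0.69 in wild-type trunks. It changed in the same direction by 0.59 ± 0.12 (SE, adjusted p = 0.0154 over all tested probes). This call was lost without Arid3b-null replicate 1 or wild type replicate 1 (adjusted p = 0.0504 and 0.0585) and with dim probes kept in (0.0658).

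Other genes of semaphorin and neuropilin signalling were read beside them. Of 14 tested, 7 rose and 0 fell (limma; 8 and 0 at an unadjusted p under 0.05), with a median log2 change of 0.49, where 13.6% of all genes rose. The ligand genes Sema3a, Sema3b and Sema3e rose 2.12-fold, 2.06-fold and 2.49-fold (adjusted p = 0.00115, 0.00347 and 0.00672), and Vegfc, the ligand of Flt4 and neuropilin 2 in lymphatic vessels, 1.83-fold (0.012). In wild-type trunks, 1 of the 3 arrays had Sema3e too close to background to be well above it. Sema3e thus entered the test only through the Arid3b-null arrays, where it is higher. With normexp, a model-based background correction, run on 1 background value per array (its median over spots), Sema3e was 1.28-fold higher and did not pass (adjusted p = 0.0634). The other 3 that rose, named after their values were seen, were Nrp1 at 2.04-fold (adjusted p = 0.0164), Plxna4 at 1.39-fold (0.0471) and Sema3g at 1.42-fold (0.0482). Plxnd1, the plexin that pairs with neuropilins in outflow vessels, had a log2 change of 0.30 ± 0.15 (SE) and did not pass (adjusted p = 0.179). It too was named after its value was seen.

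**Figure D2:**
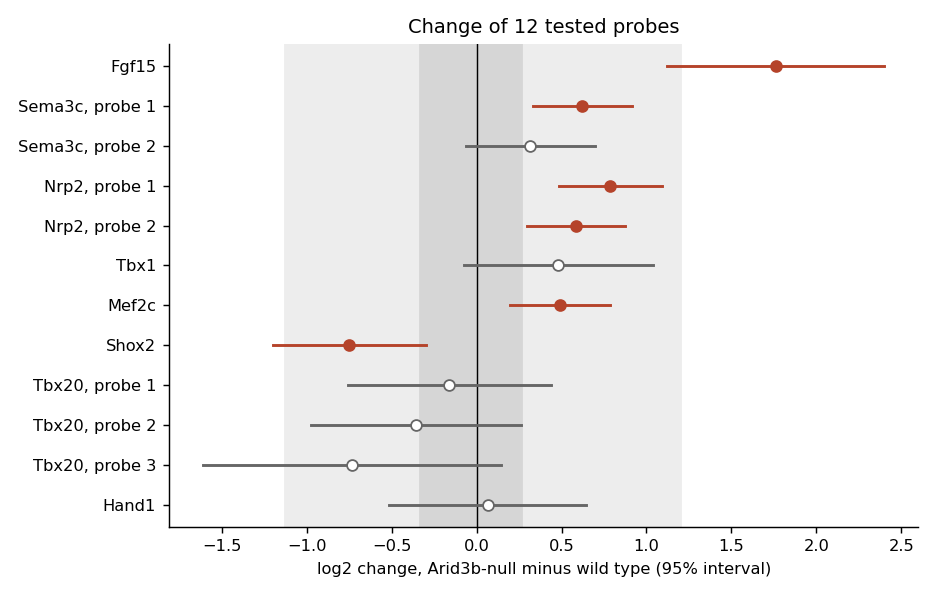
Log2 change, Arid3b-null minus wild type (horizontal axis), with its 95% interval for the 12 tested probes of 8 genes. Filled red points have an adjusted p under 0.05 over all tested probes, and grey bands hold the middle 50% and 95% of changes over all tested genes. The Fgf15 point lies outside the wider band, and the 3 Tbx20 intervals cross 0.

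Mef2c, a MADS-box transcription factor that acts downstream of Isl1 and Gata factors in second heart field cells and also in endothelium and skeletal muscle, rose slightly. It read -3.18, -2.86 and -2.98 in Arid3b-null trunks, against -3.46, -3.43 and -3.60 in wild-type trunks. The groups did not overlap, and the change was 0.28 on slide 1, 0.58 on slide 2 and 0.62 on slide 3. The log2 change was 0.49 ± 0.12 (SE, limma adjusted p = 0.0291), 1.41-fold. This call lies close to the threshold. It was lost without Arid3b-null replicate 2 or 3 and without each wild-type array (adjusted p = 0.0613 to 0.0818), with median scaling (0.067), after quantile normalization (0.0521), with the values of the deposited table (0.0628) and with dim probes kept in (0.107). With normexp the change was 0.21 to 0.29 in 2 settings and -0.46 in another, and did not pass. Of 13 endothelial genes tested, 3 rose and 0 fell (limma; 5 and 1 at an unadjusted p under 0.05), with sums of 37.3 to 42.9 in Arid3b-null trunks and 35.3 to 39.3 in wild-type trunks, which overlap. The share called was 23.1%, against 26.5% of all tested genes. Robo4 was 1.52-fold higher (adjusted p = 0.0261) and Tie1 also 1.52-fold (0.0281), but Tie1 did not pass with the replicate block (0.0508). No gene of the 13 rose without Arid3b-null replicate 2 or without wild type replicate 1 or 3. Their part in the Mef2c and Nrp2 values was not tested.

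Tbx1 encodes the T-box factor of the pharyngeal region whose human counterpart is lost in DiGeorge syndrome, and it sustains the proliferation of outflow progenitors in mice. It read 1.77, 2.41 and 1.5 in Arid3b-null trunks, against 1.36, 1.56 and 1.31 in wild-type trunks. Arid3b-null replicates 1 and 2 lay above all wild-type arrays and replicate 3 within their range, so that the groups overlapped. The change of 0.48 ± 0.23 did not pass (SE, limma adjusted p = 0.177), and its 95% interval ran from 0.949-fold to 2.05-fold. It was positive on each slide, at 0.41, 0.84 and 0.19, and 0.22 without Arid3b-null replicate 2.

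Tbx20, a T-box factor of cardiac progenitors and heart muscle, was measured by 3 probes, none of which passed with all arrays. The brightest read -3.13, -2.46 and -2.47 in Arid3b-null trunks, against -2.93, -2.23 and -2.42 in wild-type trunks, and replicate 1 was the lowest of both groups. The change was -0.16 ± 0.25 (SE, limma adjusted p = 0.674), with a 95% interval of 0.591-fold to 1.35-fold, and its sign turned to 0.06 without Arid3b-null replicate 1. The other 2 probes, of a different transcript, had changes of -0.36 ± 0.26 and -0.74 ± 0.37 (SE, adjusted p = 0.352 and 0.186 over all tested probes). The last of these was well above background on 2 of 3 Arid3b-null arrays, and on leaving out an array it ranged from -1.15 (adjusted p = 0.0287, without wild type replicate 1) to -0.36 (0.399, without wild type replicate 3).

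Heart muscle genes were read beside Tbx20. The summed signal of 18 heart muscle genes was 15.4, 38.2 and 35.9 in Arid3b-null trunks, against 29.3, 44.9 and 36.7 in wild-type trunks. It was lowest in replicate 1 of each group and highest in wild type replicate 2, as was the brightest Tbx20 probe but neither of the others. One of the 18 rose (Irx4, a ventricular transcription factor, 1.73-fold, adjusted p = 0.022) and 1 fell (Tnnc1, a troponin gene, 2.01-fold, 0.0167), with a median log2 change of -0.39. The share called was 11.1%, against 26.5% of all tested genes. The Irx4 call was lost without Arid3b-null replicate 1 or 3 or wild type replicate 1 or 2 (adjusted p = 0.0607 to 0.0752). With the replicate number as a block 4 of the 18 fell. On leaving out wild type replicate 1 the count of falls was 3, and without wild type replicate 2 or 3 no gene fell (limma; 4 fell at an unadjusted p under 0.05 with all arrays). Among the Arid3b-null arrays, replicate 1 was also the lowest for Shox2 (-5.03) and Mef2c (-3.18), but not for Fgf15, Sema3c or Nrp2. The part of heart muscle content in the Tbx20, Shox2 and Mef2c values was not tested.

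Shox2, a homeobox factor of the sinus venosus and pacemaker region that is also made in the limb bud and in spinal interneurons, was the 1 gene that fell. It read -5.03, -4.50 and -4.33 in Arid3b-null trunks, against -3.94, -3.89 and -3.79 in wild-type trunks. Every Arid3b-null array was below every wild-type array, and the Arid3b-null arrays varied more (SD 0.36, against SD 0.08 in wild type). The log2 change was -0.75 ± 0.19 (SE, limma adjusted p = 0.0296), or 59.5% of the signal in wild-type trunks, and the slides gave -1.09, -0.61 and -0.54. The processed signal was only 19.1 to 33.2 units in Arid3b-null trunks and 41.3 to 55.0 units in wild-type trunks. The call was lost without Arid3b-null replicate 2 or any 1 wild-type array (adjusted p = 0.0607 to 0.08) and with dim probes kept in (0.0977), and with normexp in 2 settings the change was -0.23 and did not pass (adjusted p = 0.0673 and 0.219). Beside it, 3 of 12 forelimb bud genes rose and 1 fell (33.3% called, against 26.5% of all tested genes). Their sums were 27.5 to 30.3 in Arid3b-null trunks and 23.9 to 25.2 in wild-type trunks. The count of falls was 2 without Arid3b-null replicate 1 and 0 without Arid3b-null replicate 2 or 3 or wild type replicate 1 or 2. All 11 early neuron genes fell, with sums of 2.26 to 2.87 in Arid3b-null trunks and 12.3 to 14.6 in wild-type trunks. Their part in the Shox2 fall was not tested.

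Hand1, a basic helix-loop-helix factor of the left ventricle, outflow tract and lateral mesoderm, read 0.22, -0.66 and -0.04 in Arid3b-null trunks, against -0.12, -0.07 and -0.49 in wild-type trunks. The Arid3b-null arrays held both the highest and the lowest value. The change was 0.06 ± 0.25 (SE, limma adjusted p = 0.868) with a 95% interval of 0.699-fold to 1.57-fold, and the slides disagreed in sign at 0.34, -0.60 and 0.45.

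Rgs5, a regulator of G protein signalling known as a marker of pericytes, read -5.94, -5.30 and -5.48 in Arid3b-null trunks, against -5.04, -5.17 and -5.92 in wild-type trunks. It was well above background on 2 arrays of each group and so did not enter the test. Without the filter its change was -0.19 ± 0.30 (SE, limma adjusted p = 0.832), with a 95% interval of 0.526-fold to 1.45-fold. The mural cell genes Kcnj8 and Myh11 never stood well above background. Of 11 mural genes tested, 1 rose (Anpep, 1.63-fold, adjusted p = 0.00828) and 1 fell (Cspg4, 1.91-fold, 0.0128). The share called was 18.2%, against 26.5% of all tested genes. Among relatives of Rgs5 in the R4 family, 5 of 9 were tested, 0 rose and 3 fell (limma; 0 and 4 at an unadjusted p under 0.05). That is 60% of a list of only 5, where 12.9% of all tested genes fell. Rgs8 fell 4.17-fold (adjusted p = 0.000879), Rgs2 1.6-fold (0.00648) and Rgs16 1.72-fold (0.00839). With the mean of its probes Rgs8 did not pass (adjusted p = 0.0505), and with the per-array normexp it fell 2.38-fold.

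**Figure D3:**
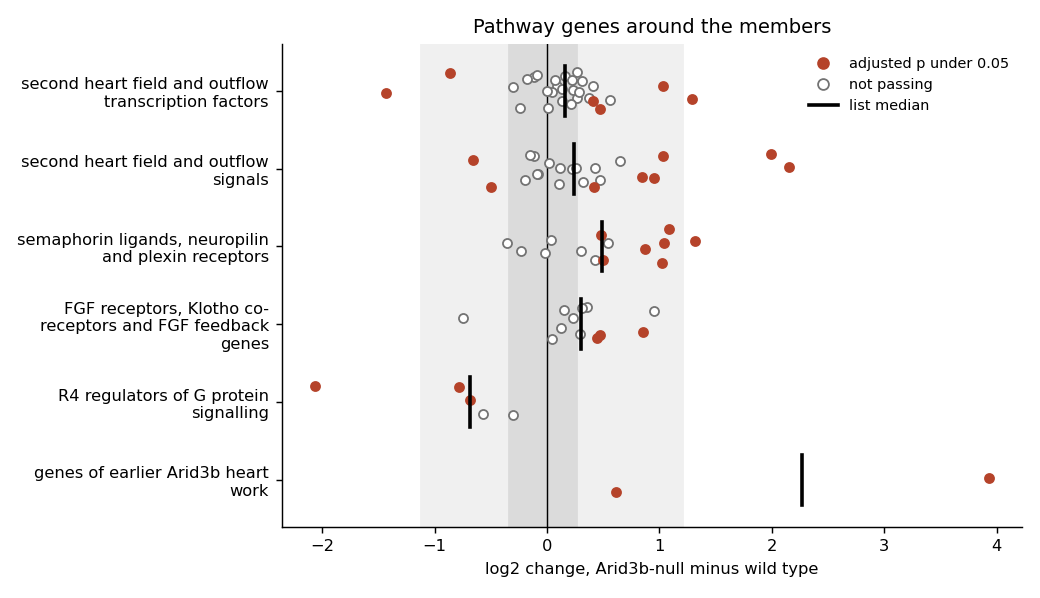
Log2 change, Arid3b-null minus wild type (horizontal axis), of each tested gene in 6 lists around the 9 genes. Filled red points have an adjusted p under 0.05, black bars are list medians, and grey bands hold the middle 50% and 95% of all tested genes. The semaphorin list has 7 filled points above 0 and none below, and the R4 list has 3 below.

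Of 29 transcription factor genes of the second heart field tested, 4 rose, 2 fell and 23 did not pass (20.7% called), with a median log2 change of 0.16, where 26.5% of all genes were called. Prdm1, a repressor of the pharyngeal region, rose 2.04-fold (limma adjusted p = 0.00528). Ripply3, which represses Tbx1 activity in pharyngeal tissue, fell 1.82-fold (0.00218) and Isl1, which also marks motor neurons, 2.69-fold (0.00294). Gata6, a zinc finger factor of heart progenitors named after its value was seen, rose 1.39-fold (0.042). Without Arid3b-null replicate 2, without wild type replicate 1 or 3, or with median scaling, 2 of the transcription factor genes rose.

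Of 22 signalling genes tested, 6 rose and 2 fell (36.4% called, against 26.5% of all tested genes), with a median log2 change of 0.24. Fgf10, the fibroblast growth factor of second heart field and limb bud mesenchyme, rose 1.79-fold (limma adjusted p = 0.00364), and Edn1, the endothelin ligand of the pharyngeal arches, 2.04-fold (0.0186). Fgf3 was not well above background on any wild-type array and entered the test only through the Arid3b-null arrays, where it is higher. Its limma adjusted p of 0.00787 belongs to a fitted 3.97-fold rise that rests on those dim wild-type values. With wild-type values raised to the dimmest signal well above background, the rise was 2.67-fold. That value depends on the floor chosen and is not a lower limit. Fgf3 is counted among the 6 rises, but with the per-array normexp it was 1.28-fold higher and did not pass (0.0812). Vegfa, which is also induced by hypoxia, rose 4.44-fold (0.000375). Bmp2, at 1.93-fold (0.0261), and Bmp4, at 1.34-fold (0.035), also rose, while Shh fell 1.58-fold (0.0229) and Cxcl12 1.41-fold (0.0237). These 4 were named after their values were seen. The 2 falls did not both hold under any omission of 1 array: the count was 0 without Arid3b-null replicate 1 or wild type replicate 1 and 1 otherwise. The Edn1 call was lost without Arid3b-null replicate 3 or wild type replicate 1 or 3 (adjusted p = 0.0534, 0.0644 and 0.0563), and the count of rises was 3 without wild type replicate 1 or 3. Both genes listed from previous studies of hearts lacking Arid3b rose, where 13.6% of all tested genes rose. This list too was chosen with earlier results of these arrays known, so the count is a description only. Bhlhe40, a repressor of the basic helix-loop-helix family, rose 15.2-fold (0.000118). With normexp it was 6.88-fold higher (per array), 5.07-fold (quantile normalization) and 3.77-fold (local background with 75th percentile scaling), and did not pass in the last of these (0.395). Lims2, an adaptor of integrin adhesions, rose 1.53-fold (0.0227), a call lost without Arid3b-null replicate 3 or any 1 wild-type array (0.0552 to 0.0716).

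**Figure D4:**
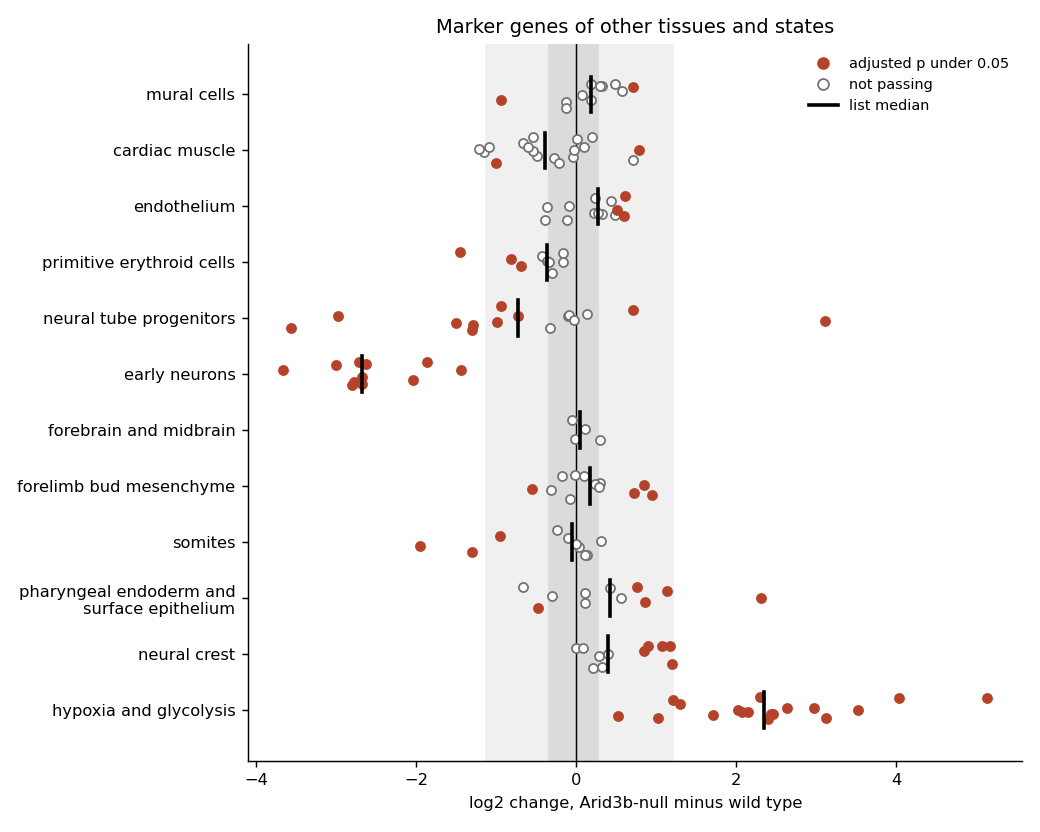
Log2 change, Arid3b-null minus wild type (horizontal axis), of each tested gene in 12 lists of markers, with points, bars and bands as in the plot of pathway genes. All 11 early neuron genes lie below 0 and all 18 genes of hypoxia and glycolysis above it.

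Among the remaining marker lists, 5 of 11 neural crest genes rose and 0 fell (limma; 7 and 0 at an unadjusted p under 0.05), Tfap2a by 2.26-fold and Foxd3 by 2.10-fold. The summed signal of neural crest genes was 34.5 to 37.6 in Arid3b-null trunks and 26.5 to 32.01 in wild-type trunks. Most of each sum came from Crabp1, named after its value was seen, which did not pass (log2 change 0.21, limma adjusted p = 0.254). All 18 genes of hypoxia and glycolysis rose, led by Eno2 at 35.2-fold and Ndrg1 at 16.3-fold, with sums of 1192 to 1293 in Arid3b-null trunks and 579 to 709 in wild-type trunks. These sums separate the groups. So do those of the neural tube, early neuron, epithelial, forelimb bud, neural crest and primitive erythroid lists. The values of 46.2% of all tested genes also did not overlap between the groups. The part of hypoxia and glycolysis genes in the changes of the 5 called genes was not tested. Of 10 somite genes 0 rose and 3 fell (limma; 1 and 3 at an unadjusted p under 0.05), Pax1 by 3.86-fold and Pax9 by 2.46-fold. The share called was 30%, near the 26.5% of all tested genes, and the list median log2 change was -0.05. Of 9 primitive erythroid genes 0 rose and 3 fell (limma; 0 and 4 at an unadjusted p under 0.05), Klf1 by 2.74-fold and Gata1 by 1.76-fold. The share called there was 33.3%. Of the 4 forebrain and midbrain genes tested 0 were called (limma; 0 at an unadjusted p under 0.05), and Emx2 had a log2 change of 0.11. The leading changes of the lists met above were Fabp7 and Dbx1 at 2.83-fold and 7.91-fold lower (neural tube), Ina and Nefl at 6.87-fold and 4.12-fold lower (early neurons), Grem1 at 1.93-fold higher (forelimb bud) and Krt19 and Krt8 at 4.96-fold and 2.20-fold higher (epithelium).

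**Figure D5:**
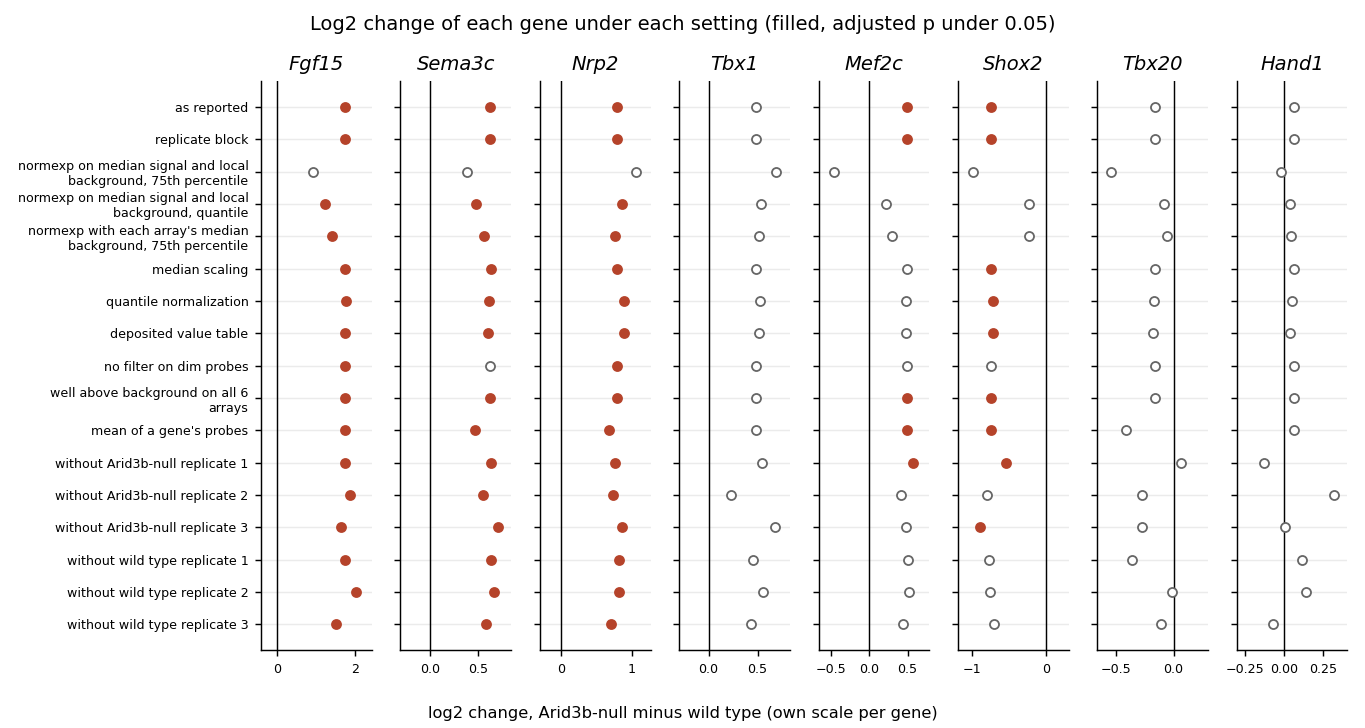
Log2 change of the 8 tested genes (horizontal axes, own scale per gene) under each processing setting (rows), filled red where the adjusted p was under 0.05. Fgf15 and Nrp2 stay filled in every row but normexp on local background with 75th percentile scaling, while Mef2c and Shox2 are open in many rows.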

How the data were processed

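RNA of 6 pools was hybridised to Agilent arrays in 1 colour (Cy3), per the labels' protocols. Per the file headers, the images were read by Feature Extraction 10.7.3.1 (protocol GE1_107_Sep09, array design 026655, build mm9). The authors deposited linear intensity columns: the background-subtracted processed signal, and median signals of spot and background. The deposited value table holds log2 values of 24181 probes, matched between arrays by a method not given in the sources used here. It correlated at 0.999 to 1.00 with each array's scanner values with a median of 6.77 in each column.

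Of 44397 spots, 43020 were not controls. The main value was log2 of the processed signal minus the array's 75th percentile, with outlier spots (100 to 169 per array) missing and spots of a probe averaged. No spot was saturated. A probe was tested if each of the 3 arrays of either group had it well above background, and a gene was represented by its brightest tested probe. Accessions were matched to the RefSeq gene table of GRCm38.p6, which named 26431 probes and left 12998 under the name in the files. limma 3.58.1 in R 4.3.3 (lmFit, eBayes) gave two-sided p-values for Arid3b-null against wild type, adjusted by Benjamini-Hochberg over 19792 genes, or over 24420 probes where said. The fit was tested on simulated data. A sum is the total, per array, of the linear signals of a list's tested genes relative to the 75th percentile.

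Arrays of one replicate number shared a slide. Their deviations from the group means correlated at 0.163, 0.387 and 0.278, against -0.346 to 0.117 for arrays of different numbers. Deviations within a group sum to 0, so these correlations are not independent of each other. They describe a likeness of arrays on a slide and do not show that the pools were paired. The main fit used no pairing. The planned normexp used the spot median, since the files hold no spot mean. The 9 genes and all lists were chosen with earlier results of these arrays known. The genes named are the 9, Arid3b, up to 4 called genes of each pathway list and up to 2 of each marker list with the smallest adjusted p, and the 2 genes most alike to each called gene. Some genes that this rule would name are not reported here. Alternatives were the replicate block, normexp, other scalings, the deposited table, other filters, the mean of probes and leaving out each array. Normexp with 1 background value per array was chosen after seeing the data. Pools of 4 embryos in 3 arrays per group limit the precision.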

Additional observations from a re-analysis of the deposited data

How the results depend on the processing

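With the replicate number, which is also the slide, as a block, 4 of the 9 genes rose and 1 fell as before. Over all genes 2428 rose and 2348 fell, and the block changed no call among the 8 tested genes. Fgf15 kept its direction and its call in every setting but normexp on local background with 75th percentile scaling (log2 change 0.94, adjusted p = 0.448), with 1.51 to 2.03 on leaving out an array. So did Nrp2 (1.06, adjusted p = 0.441, and 0.71 to 0.87). Sema3c lost its call in that setting and with dim probes kept in (adjusted p = 0.0582). In that normexp setting the median of all genes was -0.22, and among the 9 genes 0 rose and 0 fell, among pathway genes 0 and 0, and among all genes 2 and 0 (limma). Mef2c (-0.46), Hand1 (-0.020), Fgf3 (-0.76), Edn1 (-0.31), Sema3e (-0.68), Lims2 (-0.0046) and Emx2 (-0.84) turned lower there. The cause was not tested. With normexp and quantile normalization 0 of the 9 genes were called as fallen, and likewise with 1 background value per array, though the Shox2 change was -0.23 in both. Without a filter, 2 of the 9 rose and 0 fell, 10 pathway genes rose, and 1288 genes rose and 998 fell, with 32530 genes tested. On leaving out each array, 3 to 4 of the 9 rose and 0 to 1 fell (0 without Arid3b-null replicate 2 or any 1 wild-type array), 12 to 19 pathway genes rose and 5 to 7 fell, and 1661 to 2047 genes rose and 1204 to 2037 fell. The lowest counts of pathway rises were 12 without wild type replicate 1 and 13 without wild type replicate 3, against 22. Over the same omissions Tbx20 ranged from -0.36 to 0.060, Hand1 from -0.13 to 0.32 and Emx2 from -0.064 to 0.33. Signs turned without Arid3b-null replicate 1 for Tbx20, Hand1 and Emx2, without wild type replicate 3 for Hand1 and without wild type replicate 2 for Emx2. None of these 3 genes was called. Signal over background limits the dim probes, which were not well above background on every array. Examples are Rgs5, the dimmest Tbx20 probe, Fgf3 and Sema3e on wild-type arrays, and genes of the neural tube and neural crest lists.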

Other observations

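The genes whose 6 array values were most alike to those of each called gene were found among 14183 named genes by Pearson's r, given as a description only. The arrays fall into 2 groups, so a high r mostly reflects a shared difference between groups. For Fgf15 they were Cpn1 (r = 0.998) and Kdm4b (0.998), and 580 genes had r above 0.95. For Nrp2 they were Izumo4 (0.999) and Rgl3 (0.999), with 1046 genes above 0.95, and for Sema3c Tcn2 (0.9998) and Abtb1 (0.9996), with 1039. For Mef2c they were Ephx1 (0.997) and Col6a1 (0.996), with 532 genes above 0.95. Shox2 had the fewest such genes, 62, led by Nkiras1 (0.996) and Tspyl4 (0.991).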
